A study of Mus musculus with 4 samples.

Results

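The expression of 8 genes of the MHC class II antigen presentation pathway was followed through the immune cells of the mouse esophagus. They were the rows of H2-Aa, H2-Ab1, H2-Eb1, Cd74, Ciita, H2-DMa, H2-DMb1 and H2-Oa, chosen by name, 8 of the 32285 genes in the single-cell table. All 8 were found. Together they held 711383 of 35317007 unique molecular identifiers (UMIs, each a counted RNA molecule), or 2.01% of all. They are described in cell classes defined by marker genes and in both genotypes.

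MHC class II molecules are pairs of an alpha and a beta chain that show peptides from the endosome to CD4+ T cells. H2-Aa and H2-Ab1 encode the chains of I-A, and H2-Eb1 encodes the beta chain of I-E. Cd74 encodes the invariant chain, which fills the groove of new molecules until proteases cut it down. H2-DM, whose chains come from H2-DMa and H2-DMb1 or its near copy H2-DMb2, exchanges the last piece of the invariant chain for peptide, and H2-O, from H2-Oa and H2-Ob, restrains H2-DM. Ciita encodes the coactivator that switches the other genes on. Dendritic cells and B cells carry the pathway constantly, and macrophages and monocytes raise it under interferon-gamma.

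CD45+ living cells were sorted from the esophagus of 10 mice, 5 wild-type (WT1 to WT5) and 5 with a knock-out of Il20rb (KO1 to KO5), which encodes a chain shared by receptors of the IL-20 cytokine family. All mice, both genotypes alike, went through a model of eosinophilic esophagitis. For 14 days their ears received 1 nmol MC903 (calcipotriol, a vitamin D analog) and 5 mg/mL ovalbumin daily, then ovalbumin was given in drinking water at 1.5 g/l from day 14 and as 50 mg by gavage on days 15 and 17, and the mice were killed on day 18. No untreated mice are in these data. Each mouse carried its own hashtag antibody, the cells were pooled and run in 2 wells of a 10x Genomics 3′ assay, and the mouse is the replicate here. The cell type in which Il20rb was lost is not restricted by any label.

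The table held 6054 cells, 3421 wild-type and 2633 knock-out, with 271 to 897 cells and 1805883 to 5666994 UMIs per mouse. A median cell had 5269 UMIs, and 2 cell barcodes occurred in both wells. Ptprc, which encodes CD45, was found in 81.8% to 92.8% of the cells of every mouse. Il20rb itself gave 0 to 5 UMIs per mouse in wild-type and 1 to 2 in knock-out mice. That is too few to check the genotype labels, and a 3′ tag may lie outside the deleted part.

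The cells were clustered with the 8 genes and the rest of a class II pathway list left out, so that no class rests on them, and clusters were named from marker lists. The classes are called X-like for that reason. They comprised 1449 monocyte-like, 911 cDC2-like, 800 macrophage-like, 594 neutrophil-like, 298 ILC2-like, 242 T-like, 214 cycling, 190 cDC1-like, 100 B-like, 75 migratory dendritic cell (DC)-like and 55 Langerhans-like cells, and small classes of 35 NK-like, 20 mast-like, 20 plasma-like and 10 fibroblast-like cells. Another 1041 cells, 17.2%, in 7 clusters were left unnamed. Of the 100 B-like cells, 66 came from WT3, so B-like values describe mainly that mouse. Levels are counts per 1000000 UMIs of a class in a mouse (CPM), with the mean ± SD over mice that had at least 10 cells of the class. A 3′ assay counts ends of transcripts and is not divided by length, so each gene is compared between classes and not with other genes.

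RefSeq promoters were at hand for 5 of the 8 genes, all but H2-Ab1, Cd74 and Ciita. Those of 4 of these 5 and of 3 close relatives, all on chromosome 17, share a short pattern. Class II promoters are known for an X box, bound by the RFX complex, and a Y box, bound by NF-Y, on which CIITA assembles. Windows of 72 bases around the letters TGATTGG, a form of the Y box, were taken from RefSeq promoters (GRCm38.p6, 250 bases before to 50 after the start, mouse chromosome 17, 5′ to 3′ along the gene). They are shown because these genes share the pattern while H2-Oa, H2-DMb2 and H2-Eb2 differ from the others in the classes that express them. Capitals mark TGATTGG and, where present, GCAAC, letters of the X box core.
H2-Aa, chr17:34287847-34287918, minus strand: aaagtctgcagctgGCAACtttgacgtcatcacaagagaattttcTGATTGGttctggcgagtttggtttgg
H2-Eb1, chr17:34305761-34305832, plus strand: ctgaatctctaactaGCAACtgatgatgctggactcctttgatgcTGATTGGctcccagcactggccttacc
H2-DMb1, chr17:34153083-34153154, plus strand: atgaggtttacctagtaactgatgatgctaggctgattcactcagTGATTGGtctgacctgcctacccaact
H2-Oa, chr17:34092289-34092360, plus strand: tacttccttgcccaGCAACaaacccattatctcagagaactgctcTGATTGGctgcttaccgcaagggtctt
H2-Ob, chr17:34238801-34238872, plus strand: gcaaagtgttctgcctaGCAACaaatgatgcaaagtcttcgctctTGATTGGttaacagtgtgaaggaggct
H2-DMb2, chr17:34145112-34145183, plus strand: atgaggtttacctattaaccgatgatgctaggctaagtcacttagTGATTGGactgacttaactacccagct
H2-Eb2, chr17:34325528-34325599, plus strand: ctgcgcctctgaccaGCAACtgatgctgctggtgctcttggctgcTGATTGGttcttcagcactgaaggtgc

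TGATTGG began 45 bases before the start in H2-Oa, 50 in H2-Aa, 59 in H2-Ob, 61 in H2-Eb1, 63 in H2-DMb1, 92 in H2-DMb2 and 102 in H2-Eb2. For H2-DMb2 and H2-Eb2 the window lies inside the annotated gene, which begins at 34143229 and 34325503. Their start is thus an internal one. GCAAC lay 23 to 26 bases before TGATTGG in 5 of these 7 windows, and not in H2-DMb1 or H2-DMb2. Among 32851 RefSeq promoters of 27025 genes, 7.82% held TGATTGG on either strand and 35.2% held GCAAC. The pair on the same strand, with GCAAC 10 to 35 bases before TGATTGG, was in 0.237%, a spacing set after the matches had been seen. The 2 annotated H2-DMa promoters held neither TGATTGG nor the pair. A match describes the letters of the window and shows no binding.

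The pathway was concentrated in dendritic cells. cDC2-like cells were 15.0% of cells and held 40.6% of the UMIs of the 8 genes, while monocyte-like cells were 23.9% of cells and held 5.66%. In cDC2-like cells the 8 genes took 4.54% ± 0.461 (SD, n = 10) of all UMIs, with a lowest mouse at 3.92% and a highest at 5.59%. The share was 3.97% ± 0.306 (n = 9) in cDC1-like, 2.90% ± 0.792 (n = 4) in migratory DC-like and 2.70% ± 0.589 (n = 7) in cycling cells. Cycling cells are named by the cell cycle and mix cell types, and their 3 clusters ran from 0.00592% to 2.83%. The share was 1.44% ± 0.796 (n = 10) in macrophage-like and 0.526% ± 0.313 (n = 9) in monocyte-like cells. Langerhans-like cells, antigen presenting cells of squamous epithelium, had the highest pooled share, 6.14%, and B-like cells had 1.77%. Both of these rest on pooled cells, since a single mouse had 10 or more.

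At the low end were T-like cells at 0.117% ± 0.182 (n = 9), neutrophil-like cells at 0.0602% ± 0.0497 (n = 7) and ILC2-like cells at 0.0180% ± 0.00445 (n = 9). Group 2 innate lymphoid cells (ILC2) are tissue lymphocytes that make type 2 cytokines. In the T-like class 2 of 242 cells held 50% of the 1134 class II UMIs, and those 2 cells carried 69 UMIs of Lyz2, a myeloid gene, beside 3 of Trac. Neighbouring classes in this order overlapped between mice for most genes, so the order is a description. For Cd74 the neutrophil-like and ILC2-like ranges did not overlap. Within mice, Cd74 was higher in cDC2-like than in cDC1-like cells in 9 of 9 mice, and the sum of the 8 genes was higher in macrophage-like than in monocyte-like cells in 9 of 9.

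**Figure D1:**
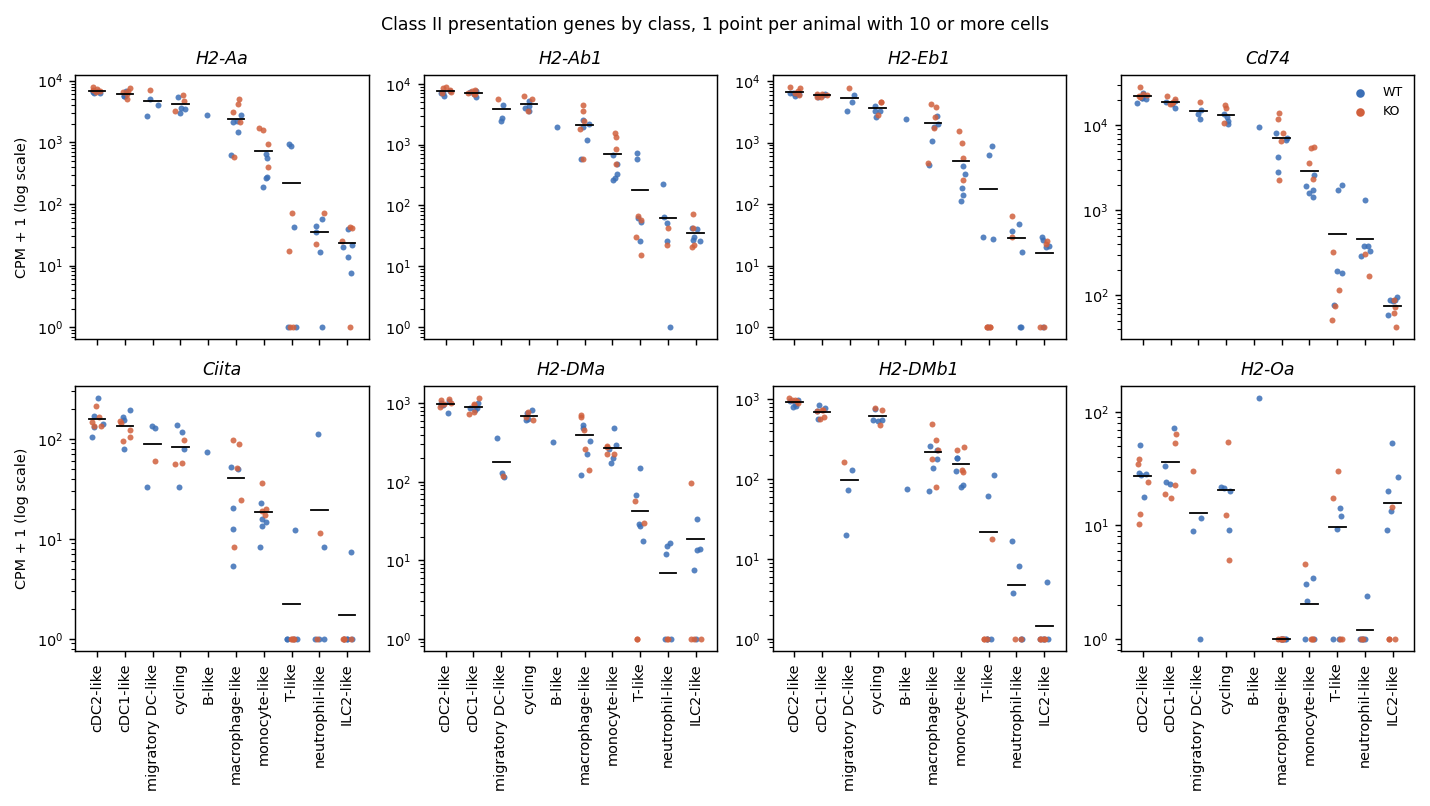
Level of each of the 8 genes in 10 cell classes, as CPM plus 1 on a log axis. Each point is a mouse with at least 10 cells of the class (blue wild-type, red knock-out) and the black line is the mean where at least 3 mice had them. The means of cDC2-like and cDC1-like cells are the highest drawn for all 8 genes and ILC2-like cells are lowest of these classes for Cd74. Migratory DC-like cells lie below macrophage-like cells for H2-DMa and H2-DMb1, and the single B-like point lies above the cDC means for H2-Oa.

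Cd74, the invariant chain, stood at 22366 ± 2713 CPM in cDC2-like cells (SD, n = 10), 18810 ± 1827 in cDC1-like (n = 9) and 14855 ± 2911 in migratory DC-like cells (n = 4). It was 7166 ± 3699 in macrophage-like (n = 10), 2900 ± 1581 in monocyte-like (n = 9) and 73.8 ± 17.6 in ILC2-like cells (n = 9). Pooled B-like cells gave 9760 CPM (exact Poisson 95% interval 9435 to 10093) and pooled Langerhans-like cells 30072. Such intervals cover counting error only.

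The I-A and I-E chains had the same order over the 4 classes compared here. H2-Ab1 was 7487 ± 793 CPM in cDC2-like, 7063 ± 529 in cDC1-like, 2118 ± 1229 in macrophage-like and 695 ± 474 in monocyte-like cells. H2-Aa was 6882 ± 499, 6169 ± 813, 2409 ± 1418 and 723 ± 563 in those classes. H2-Eb1 was 6578 ± 752, 5851 ± 325, 2076 ± 1288 and 499 ± 480. The SD relative to the mean was small in the cDC classes and large in macrophage-like and monocyte-like cells, where single mice differed several-fold. In the reference, Ciita overlaps Dexi and H2-DMa overlaps Brd2, so reads of these pairs may be shared. Ciita, the coactivator, was 159 ± 44.1 CPM in cDC2-like, 133 ± 36.5 in cDC1-like, 40.0 ± 32.6 in macrophage-like and 17.6 ± 7.72 in monocyte-like cells, and 91.7 (62.7 to 129) in pooled B-like cells. Without WT3 the B-like value was 144 (76.6 to 246), and in WT3 alone 73.5 (44.2 to 115).

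Among the same 4 classes the chains of the chaperone H2-DM were also highest in cDC2-like cells, but stood in another proportion to the I-A alpha chain. In the single mouse with at least 10 Langerhans-like cells H2-DMa was 987 CPM. H2-DMa was 983 ± 111 CPM in cDC2-like, 904 ± 132 in cDC1-like, 393 ± 209 in macrophage-like and 269 ± 88.3 in monocyte-like cells. H2-DMb1 was 918 ± 73.3, 688 ± 95.2, 214 ± 121 and 153 ± 60.2. As a share of the H2-DMa and H2-Aa UMIs together, H2-DMa made up 12.5% ± 1.25 in cDC2-like (mean ± SD over mice, n = 10), 14.8% ± 3.04 in macrophage-like (n = 10) and 34.0% ± 16.6 in monocyte-like cells (n = 9). The monocyte-like mice ran from 11.8% to 60.7% and overlapped both other classes. In migratory DC-like cells, mature cells bearing Ccr7 that leave for the lymph node, it was 4.33% of pooled UMIs (exact binomial 95% interval 3.55 to 5.22) and 4.25% ± 2.90 over mice (n = 10), with H2-DMa at 180 ± 122 CPM and H2-DMb1 at 94.8 ± 62.5 (n = 4). H2-Aa was still 4652 ± 1821 CPM there. Unlike the levels, the shares over mice use every mouse with at least 20 UMIs of the pair, whatever its number of cells. For migratory DC-like cells this takes in WT4 and KO3, with 2 cells each.

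Near copies of the chains divided the classes differently. The counting may split reads between H2-DMb1 and H2-DMb2, so their values are uncertain. H2-DMb2 made up 84.5% (77.8 to 89.8) of the UMIs of the pair in B-like cells, 131 UMIs against 24. It made up 53.7% (44.4 to 62.8) in migratory DC-like cells, 65 against 56. The share was 10.8% in cDC2-like (10.1 to 11.6), 10.2% in cDC1-like, 4.96% in macrophage-like and 3.67% in monocyte-like cells. H2-Eb2, a near copy of H2-Eb1, was chosen for mention after its values were seen. Of its 84 UMIs in the table, 45 came from the 75 migratory DC-like cells, where it was at 117 ± 63.7 CPM (n = 4), against 2.04 ± 4.08 in cDC1-like cells (n = 9). Another 13 came from the 100 B-like cells, so it was not particular to migratory DC-like cells. Of the UMIs of H2-Eb2 and H2-Eb1 together, H2-Eb2 made up 1.69% (1.23 to 2.25) in migratory DC-like cells. In B-like cells it made up 1.47% (0.78 to 2.50), an overlapping interval.

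**Figure D2:**
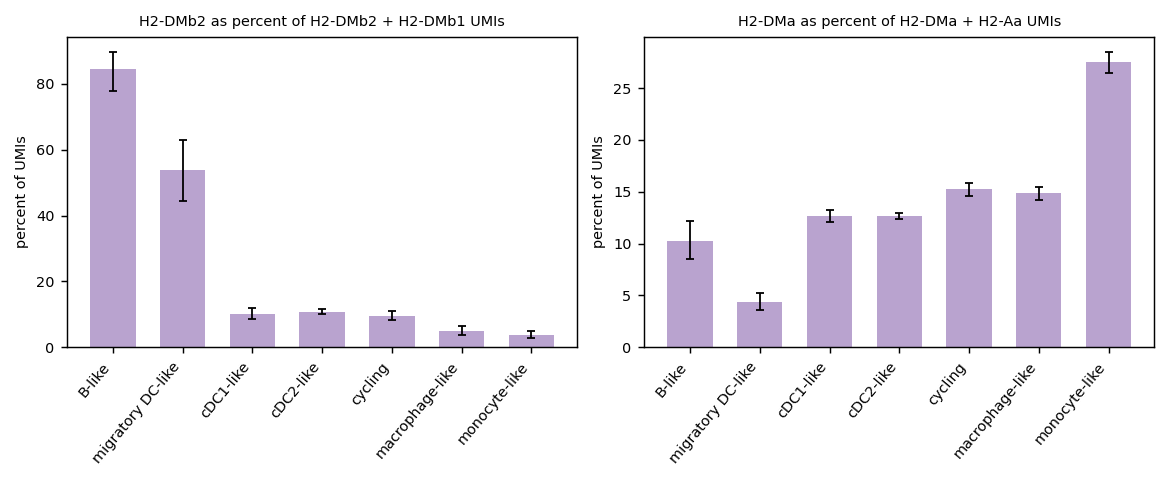
Left, H2-DMb2 as a percent of the UMIs of H2-DMb2 and H2-DMb1 together. Right, H2-DMa as a percent of the UMIs of H2-DMa and H2-Aa together, in 7 classes. Bars are pooled cells and error bars the exact binomial 95% interval, which covers counting error only. B-like (84.5%) and migratory DC-like (53.7%) cells stand above the other 5 classes on the left, and migratory DC-like cells are lowest on the right at 4.33%.

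H2-Oa, a chain of the H2-DM inhibitor, followed another order than the rest. Pooled B-like cells had 158 CPM (119 to 205) of H2-Oa and 300.9 (246 to 364) of its partner H2-Ob, and 38% of the cells had an H2-Oa UMI. H2-Oa was 35.6 ± 20.9 CPM in cDC1-like cells (n = 9) and 26.6 ± 12.5 in cDC2-like cells (n = 10). Macrophage-like cells had 0 of 800 cells with a UMI, which allows a share of cells with a UMI of up to 0.375% (3 cells), while their Cd74 was at 7166 ± 3699 CPM (n = 10). Without WT3, 34 B-like cells gave 233 CPM of H2-Oa (144 to 355).

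ILC2-like cells, near the bottom in the sum of the 8 genes, held some H2-Oa. There were 19 H2-Oa UMIs in 18 of 298 cells, 6.04% (exact binomial 95% interval 3.62 to 9.38). The class also had 84 UMIs of Cd74, 35 of H2-Ab1, 23 of H2-Aa, 21 of H2-DMa and 19 of H2-Eb1, 1 each of Ciita and H2-DMb1, and 0 of H2-Ob, which allows up to 2.85 CPM of it (3 counts). A Cd74 UMI was found in 23.2% of ILC2-like, 27.7% of T-like and 39.9% of neutrophil-like cells, so the Cd74 share of ILC2-like cells is not above that of the other low classes, and free RNA was not measured. T-like cells, with a median of 3102 UMIs against 3281 in ILC2-like cells, showed an H2-Oa UMI in 2.07% (0.674 to 4.76), an interval that overlaps that of ILC2-like cells, and neutrophil-like cells, with a median of 1820.5, in 0.168%. After each cell was thinned to 1000 UMIs the shares were 1.68%, 1.24% and 0%, a level at which ILC2-like and T-like cells are not distinguishable. H2-Oa was 45.2% (29.9 to 61.3) of the UMIs of H2-Oa and H2-Aa together in ILC2-like cells, against 5.31% in B-like, 0.557% in cDC1-like and 0.374% in cDC2-like cells.

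The B cell genes Cd79a and Ms4a1 were at 0 in the class. Of the 12 B cell markers all but Cd79b and Ighm were at 0 in mice with at least 10 cells. Summed, the markers were 38.4 to 119 CPM in these wild-type and 42.8 to 95.7 in these knock-out mice. By mouse, 8 of 40 ILC2-like cells had an H2-Oa UMI in WT1, 2 of 25 in WT2, 2 of 75 in WT3, 2 of 44 in WT4 and 3 of 49 in WT5. Of the 65 knock-out cells, 1 in KO2 had one. WT1 thus gave 8 of the 18 cells, and without it 10 of 258 cells, 3.88%, had a UMI, which is 9 of 193, 4.66%, in the other wild-type mice. H2-Oa was too low for the edgeR test within ILC2-like cells. DESeq2, and edgeR without the filter on low counts, tested all 8 genes there and called 0. Between ILC2-like and cDC2-like cells the effect of genotype on H2-Oa differed by -1.94 ± 1.29 on the log2 scale (edgeR adjusted p = 0.993). In the reference H2-Oa overlaps another gene, BC051537. Strand use in the counting is not given in the sources used here, so reads of the pair cannot be told apart.

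Within classes, cells differed widely in how much class II RNA they held. After thinning to 1000 UMIs per cell, the median cell had 46 UMIs of the 8 genes in the cDC2-like class, 40 in cDC1-like, 24 in migratory DC-like and 17 in B-like cells. It had 9 in the macrophage-like class, where 17.9% of cells had 0, and 1 in the monocyte-like class, where 35.6% had 0. In ILC2-like cells 84.2% had 0.

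**Figure D3:**
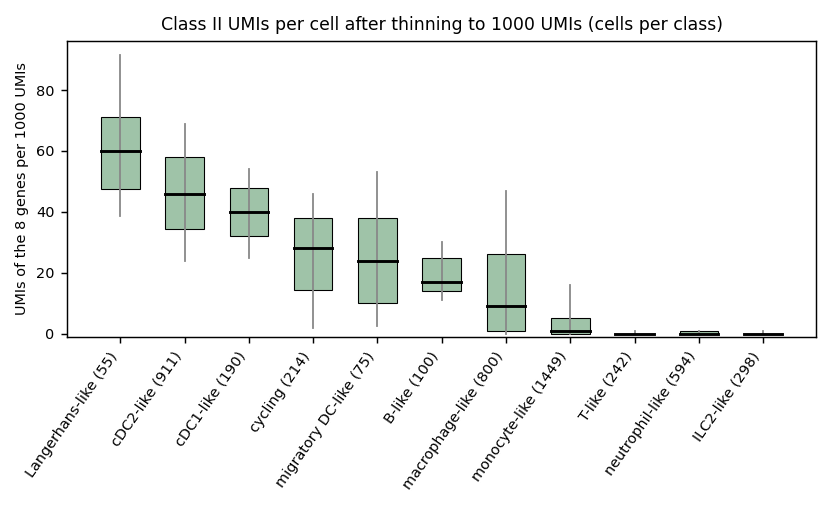
UMIs of the 8 genes per cell after thinning each cell to 1000 UMIs, by class. Boxes span the 25th to 75th percentile, the line is the median and whiskers run from the 10th to the 90th percentile. The median falls from 46 in cDC2-like to 9 in macrophage-like and 1 in monocyte-like cells.

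The clusters within the macrophage-like class differed 8.31-fold in the share of the 8 genes. A cluster led by Spp1, Gpnmb and Pf4, genes of lipid-handling and matrix-handling macrophages, had 0.411%, and a cluster led by Ccl8 and Ccl12 had 0.488%. A cluster led by Cx3cr1 and C1q genes had 2.40%, and a Lyve1 cluster with Fxyd2 and C1qa had 3.41%. Monocyte-like clusters differed 4.92-fold, from 0.224% in the cluster led by Ccl24 and Arg1 to 1.10% in the cluster led by Ifi213 and Ly6c2. cDC2-like clusters differed 1.51-fold.

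**Figure D4:**
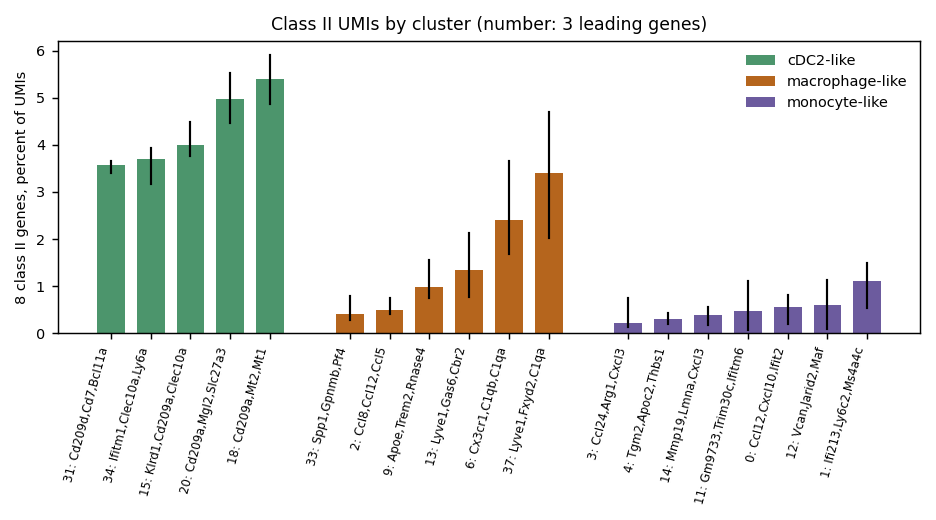
The 8 genes as a percent of all UMIs in each cluster of the cDC2-like, macrophage-like and monocyte-like classes. Bars are pooled cells and the black line runs from the lowest to the highest mouse with at least 10 cells in the cluster. The clusters span 1.51-fold, 8.31-fold and 4.92-fold in the 3 classes.

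Across the 10 mice, macrophage-like H2-Ab1 and Ciita moved together. H2-Ab1 was 575, 1187, 2563, 1927 and 2162 CPM in WT1 to WT5, and 567.6, 4466, 3523, 2436 and 1777 CPM in KO1 to KO5. Ciita was 4.31, 11.6, 48.9, 50.8 and 19.5 CPM in WT1 to WT5 and 7.29, 96.6, 87.3, 50.1 and 23.6 in KO1 to KO5. These Ciita levels rest on 174 UMIs in all 10 mice, so those of the low mice rest on few counts. WT1 and KO1 were lowest on both genes and KO2 and KO3 highest. The cluster of Spp1, Gpnmb and Pf4 held 63.4% of macrophage-like cells in WT1, 47.4% in KO1 and 46.6% in WT2, and 18.4% or less in the other mice. Whether this make-up sets the relation was not tested.

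Over log2 values the correlation of H2-Ab1 with Ciita was r = 0.942 (permutation p = 6e-05, Benjamini-Hochberg adjusted p = 0.00072 over 12 relations computed) and rho = 0.879 (permutation p = 0.00167, adjusted 0.0169). It was r = 0.901 without WT1 and KO1, the mice farthest from the median of Ciita, and 0.942 with each genotype centred. Macrophage-like H2-Ab1 also followed cDC2-like H2-Ab1, r = 0.859 (permutation p = 0.00192, adjusted p = 0.0115) and rho = 0.855 (permutation p = 0.00282), and r was 0.827 without KO2 and KO3. The values of a mouse share its hashtag and pool. In the cDC2-like class, H2-Ab1 and Ciita gave r = -0.594 (permutation, adjusted p = 0.144) without centring. This and the other 9 relations had adjusted p-values of 0.103 or more without centring. With each genotype centred the cDC2-like relation with Ciita gave r = -0.771 (permutation, adjusted p = 0.0243). Centred values were permuted over all mice and not within genotype, so that p is approximate and may be too small.

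Genes outside the 8 that resembled Cd74, H2-Aa, H2-Ab1 and H2-Eb1 most over 15 classes, by Pearson correlation of log2(CPM + 20) among 6761 genes, were Ifi30 (r = 0.949), Plekho1, Ctsh, Fgd2, Pkib, Tbc1d9, Rassf4, BC028528, Pld4 and Napsa (0.903). Ifi30 encodes a thiol reductase of the endosome, and Ctsh and Napsa encode endosomal proteases. The classes share libraries and no p is given. By the same measure H2-Oa had r = 0.576.

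Other pathway genes, from a list of 28 found in the table, had class patterns of their own. Ctss, the protease that finishes the cleavage of the invariant chain, was 2354 ± 631 CPM in macrophage-like, 1559 ± 415 in monocyte-like and 883 ± 132 in cDC2-like cells. Ctsl, another cathepsin, was 1012 ± 859 CPM in macrophage-like cells and 10.3 ± 7.52 in cDC2-like cells. Ifi30 was highest in migratory DC-like cells at 2611 ± 818 CPM. March1, a ligase that sends surface class II molecules to the lysosome, was 89.5 ± 15.2 CPM in cDC2-like and 119 ± 29.9 in cDC1-like cells, and 0 of 552887 UMIs in migratory DC-like cells, which allows up to 5.43 CPM.

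Knock-out and wild-type mice were compared within each class that had at least 3 mice a genotype, by edgeR's quasi-likelihood test on summed UMIs with Benjamini-Hochberg adjustment over all genes tested. None of the 8 genes passed an adjusted p of 0.05 in any class. In the sum of all CD45+ cells 0.0393% of 10175 genes were called and 0 of the 8. At an unadjusted p under 0.05 stood 0 of the 8 (6.77% of genes), and DESeq2 called 0 of the 8 (0.466%). There 7 of the 8 fold changes were above 0, with a median of 0.49 on the log2 scale against 0.00 over all genes. Cd74 was 0.53 ± 0.26 (SE), adjusted p = 0.779. In such sums, fewer cells of a type and less RNA per cell cannot be told apart.

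In the monocyte-like class the 8 genes came nearest to the threshold. Cd74 was 1442, 1904, 2622, 1582 and 1750 CPM in WT1 to WT5, and 2329, 5517, 3580 and 5371 in KO1, KO2, KO4 and KO5. KO1 lay below WT3, so the groups overlapped, while the other knock-out mice lay above every wild-type mouse. KO3 had 6 cells and was left out, and KO2 had 11. H2-Ab1 was 261, 479, 669, 282 and 328 CPM in WT1 to WT5 and 474, 1563, 846 and 1351 in the same knock-out mice. KO1 again lay within the wild-type range.

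Of 5275 genes tested in monocyte-like cells 0.929% (49 genes) were called, 35 higher and 14 lower in knock-out mice. Of the 8, 6 passed the filter on low counts and 0 were called by edgeR, with 4 at an unadjusted p under 0.05, against 16.7% of all genes. Cd74 differed by 1.22 ± 0.25 on the log2 scale (edgeR adjusted p = 0.0559), from 1860 ± 460 CPM in wild-type (n = 5) to 4199 ± 1527 in knock-out mice (n = 4). H2-Ab1 differed by 1.42 ± 0.38 (edgeR adjusted p = 0.0995), H2-Aa by 1.62 ± 0.49 (0.143) and H2-Eb1 by 1.81 ± 0.56 (0.151). H2-DMb1 differed by 0.54 ± 0.31 (0.403) and H2-DMa by -0.03 ± 0.26 (0.986). Ciita, at 14.0 ± 5.22 and 22.0 ± 8.69 CPM, and H2-Oa did not pass the filter. The median of the 6 was 1.32 against -0.02 over all genes tested.

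These calls turned with the tool and with single mice. DESeq2 called 4 of the 8, Cd74 (adjusted p = 0.000405), H2-Ab1 (0.00194), H2-Eb1 (0.0452) and H2-Aa (0.0491), among 3.05% of its genes. The 49 genes called became 1 without KO4 or KO5, 2 without WT4, 7 without KO1 or WT5, 12 without WT3 and 348 without WT1. With edgeR, Cd74 was called without KO1 (adjusted p = 0.0123) and without WT1 (0.0464). In cells of well 1 and of well 2 alone the Cd74 difference was 1.08 (edgeR adjusted p = 0.0895) and 1.11 (0.171) on the log2 scale.

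The mean make-up of the class was not the same in both genotypes, a difference that was not tested. A cluster led by Mmp19 held 47.7% ± 31.9 of monocyte-like cells in wild-type and 6.74% ± 7.71 in knock-out mice, and the interferon-marked clusters led by Cxcl10 and by Ifi213 held 6.79% ± 6.31 and 3.72% ± 2.64 in wild-type against 27.5% ± 14.3 and 17.7% ± 9.03 in knock-out mice. The mice of both genotypes overlapped for the Mmp19 and Cxcl10 clusters. The name of the Mmp19 cluster is weakly supported, with 4 of 14 monocyte markers raised. Its markers had a mean log2 fold over all other cells of 0.0493, against 0.574 to 1.59 in the other monocyte-like clusters. A cluster that also had Mmp19, Lmna, Emp1 and Sgms2 among its leading genes was left unnamed. Without the Mmp19 cluster, an alternative chosen after seeing the data, Cd74 differed by 1.17 (edgeR adjusted p = 0.463), and without the Cxcl10 cluster by 1.13 (adjusted p = 0.196). In the Cxcl10 cluster alone Cd74 was 1564 ± 602 CPM in 2 wild-type and 3508 ± 1080 in 3 knock-out mice. In the cluster led by Vcan it was 2987 ± 222 in 2 and 3193 ± 2691 in 3. In the Mmp19 cluster it was 1989 ± 808.5 in 5 and 2575 in 1. The knock-out mean of Cd74 was above the wild-type mean in each of the 7 monocyte-like clusters. Some of these means rest on 1 mouse, and the differences within clusters were not tested. The summed cDC1 markers were 254 to 323 CPM in wild-type and 363 to 499 in knock-out mice, 5 of 10 of them higher on average, with Cadm1 at 0. The cDC2 markers were 438 to 531 and 367 to 697 CPM, 4 of 10 higher, with Cd7 at 0. The part of other cell types' markers in the class II difference was not tested.

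In cDC2-like cells the difference was small. Cd74 was 18569, 20551, 20790, 21029 and 23789 CPM in WT1 to WT5 and 21612, 23046, 28644, 23645 and 21987 in KO1 to KO5. Only KO3 lay above every wild-type mouse, and the groups overlapped. Of 5897 genes edgeR called 0.017% and 0 of the 8, and DESeq2 called 0.0207% and 0 of the 8. At an unadjusted p under 0.05 there were 4 of the 8, against 4.73% of all genes. Cd74 differed by 0.20 ± 0.07 on the log2 scale (edgeR adjusted p = 0.828), H2-Eb1 by 0.22 ± 0.08 (0.828), H2-Ab1 by 0.19 ± 0.07 (0.952), H2-Aa by 0.14 ± 0.07 and H2-Oa by -0.35 ± 0.38.

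In macrophage-like cells 0% of 5056 genes were called, and 0 of the 7 members tested by edgeR, with 0 at an unadjusted p under 0.05 against 4.73% of genes. DESeq2 called 0.0274% of genes and 0 members. All 7 fold changes were above 0, from 0.43 to 0.77 on the log2 scale, with Cd74 at 5801 ± 2182 CPM in wild-type and 8531 ± 4621 in knock-out mice (n = 5 each, edgeR adjusted p = 0.956). The difference between the Cd74 means was smaller than the SD of the knock-out mice. By edgeR 0 of 7 members were called in cDC1-like cells (0.144% of genes), 0 of 7 in cycling cells (0.0257%) and 0 of 1 in T-like cells (0%). At an unadjusted p under 0.05 there were 0 members in each, against 5.62%, 3.05% and 8.05% of genes, and DESeq2 called 0 members, against 0.00834%, 0.0149% and 0%. No member passed the filter in ILC2-like cells, where 0.259% of genes were called.

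**Figure D5:**
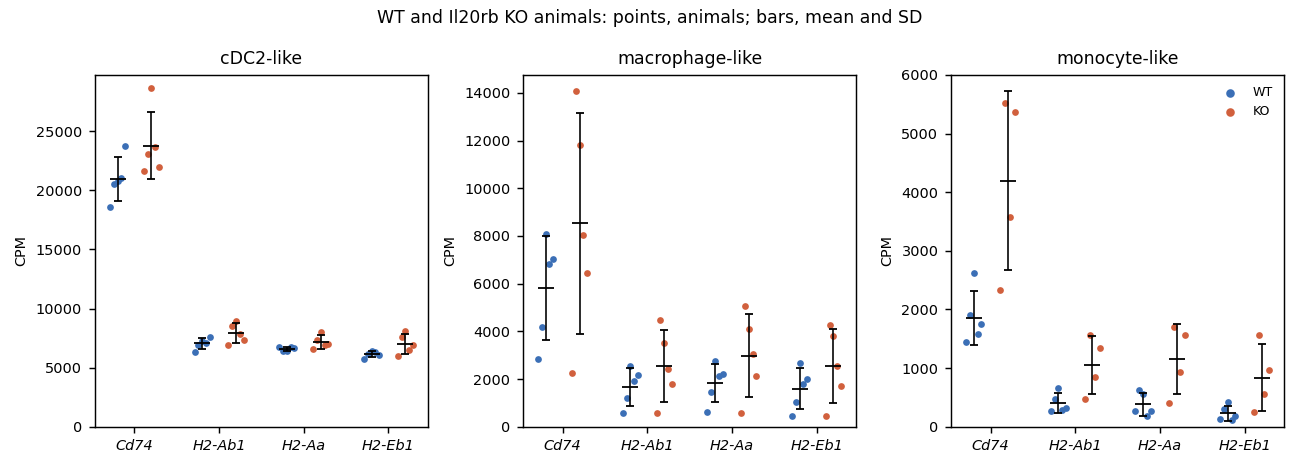
Cd74, H2-Ab1, H2-Aa and H2-Eb1 in cDC2-like, macrophage-like and monocyte-like cells, in CPM. Points are mice with at least 10 cells (blue wild-type, red knock-out) and bars the mean and SD. Knock-out means lie above wild-type means in all 12 sets and the mice of both genotypes overlap in each.

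The difference between monocyte-like and cDC2-like cells in the effect of genotype was tested as an interaction with a term for each mouse. By edgeR 0.249% of 6817 genes were called and 0 of the 8. For Cd74 the effects differed by 1.02 ± 0.28 on the log2 scale (edgeR adjusted p = 0.290). For macrophage-like against cDC2-like cells 0 of 6769 genes were called.

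Of the 28 pathway genes 0 were called by edgeR in any class. In monocyte-like cells 23 were tested, 16 above and 7 below 0, 9 of them at an unadjusted p under 0.05 against 16.7% of all genes, with a median of 0.13 on the log2 scale against -0.02 over all genes. Among those with the lowest p, Ctss was 1293 ± 228 CPM in wild-type and 1892 ± 352 in knock-out mice, a difference of 0.62 ± 0.16 (edgeR adjusted p = 0.0713). Irf1, an interferon-induced activator of Ciita, differed by 0.70 ± 0.24 (edgeR adjusted p = 0.151). In macrophage-like cells 11 of 19 were above 0, led by Jak2 at 0.70 ± 0.33, Irf1 at 0.59 ± 0.28 and Nfya at 0.50 ± 0.30 (edgeR adjusted p = 0.956 each). In cDC2-like cells 13 of 24 were above 0, and those with the lowest p were Creb1 at -0.51 ± 0.18 and Ctsd at -0.66 ± 0.23 (edgeR adjusted p = 0.828 each) and Jak2 at -0.57 ± 0.26. In cDC1-like cells 8 of 14 were above 0, with Ctsb at 0.51 ± 0.22 and Cd44 at 0.40 ± 0.22 among those of lowest p. In ILC2-like cells 5 of 9 were above 0, with Cd44 at 0.39 ± 0.20, Socs1 at -0.52 ± 0.42 and Ifngr1 at 0.21 ± 0.24. In T-like cells 3 of 9 were above 0, with Ifngr1 at -0.66 ± 0.28, Irf2 at -0.44 ± 0.36 and Cd44 at -0.33 ± 0.31, and in cycling cells 7 of 21, with Ifi30 at -0.42 ± 0.14, Ctsb at 0.38 ± 0.23 and Nfya at -0.59 ± 0.37. In all CD45+ cells 17 of 27 were above 0, with March1 at 0.23 ± 0.10, Nfya at 0.24 ± 0.12 and Creb1 at -0.20 ± 0.11 having the lowest p.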

How the data were processed

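The deposited table holds UMI counts per gene and cell, not normalized, which the authors made with Cell Ranger 6.0.1 on mm10 and R 4.0.5, per the submitters' processing notes. The deposited cells had at least 1000 UMIs and 501 genes and at most 9.99% mitochondrial UMIs. Genotype and mouse came from the hashtag label of each cell. Cells were clustered (scanpy 1.11.5, Leiden resolution 3, 2000 variable genes, 30 components, 15 neighbours, Python 3.11.15) without 36 class II genes, and clusters named where at least 3 of a type's markers were raised. A doublet caller marked 3 cells (0.0496%) and was not usable. An alternative drops the top 5% instead. Sums per mouse and class (at least 10 cells, 3 mice a genotype) were tested with edgeR 4.0.16 (TMM, robust quasi-likelihood, R 4.3.3), with DESeq2 1.42.0 as alternative, and the scripts were tested on simulated data. Relations used log2(CPM + 5), with 100000 random orders for 10 mice and every order for fewer than 10 (scipy 1.17.1). Intervals are 95%. The 8 members were named in every class. Of the pathway list, the called genes were to be named, or else the 3 of lowest p in each class, and likeness named 10 genes. Some results of the lists and relations are not reported here. The members and lists were chosen with earlier results of these data known. Other alternatives were other scaling, no filter, marker gates, single wells and leaving out each mouse.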

Additional observations from a re-analysis of the deposited data

Results flagged for a closer look

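In neutrophil-like cells the library of WT4 stood apart from the other wild-type mice, with 0.171% of its UMIs from the 8 genes. It rests on 12 cells and 31 UMIs of the 8 genes, 24 of them from Cd74. In all, 14 groups of mice were examined for such a gap and 1 value stood apart. Chance alone sets about 1 group in 20 apart.

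The cells of the 7 unnamed clusters, which enter no class, held 2.25% of their UMIs as the 8 genes, pooled, with clusters from 0.318% to 4.19%. They held 19.7% of all UMIs of the 8 genes.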

How the results depend on the processing

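No paired analysis was possible because each mouse had its own hashtag, the labels pair no wild-type mouse with a knock-out mouse, and the numbers 1 to 5 used here only name mice in hashtag order. In monocyte-like cells the members called, 0 by edgeR, were 4 by DESeq2, 2 without the filter on low counts, 1 without robust dispersion, 1 with class II genes kept in the clustering, and 0 to 1 when each mouse was left out in turn.

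DESeq2 called 62 genes in all CD45+ cells, 1 in cDC1-like, 3 in cDC2-like, 2 in cycling, 4 in macrophage-like and 131 in monocyte-like cells, against 4, 3, 1, 1, 0 and 49. Without the filter there were 7 in all CD45+, 13 in ILC2-like, 23 in T-like, 13 in cDC1-like, 26 in cDC2-like, 7 in cycling, 10 in macrophage-like and 429 in monocyte-like cells. Without robust dispersion there were 0 in cDC1-like, 2 in cDC2-like and 2 in cycling cells, and with class II genes kept in the clustering 3 in macrophage-like cells. With classes set by marker gates there were 1 in cDC1-like, 7 in cDC2-like, 6 in macrophage-like and 2 in monocyte-like cells. Without the top 5% by doublet score there were 7 in ILC2-like, 1 in cDC1-like and 79 in monocyte-like cells. In well 1 there were 2 in all CD45+, 2 in cDC2-like and 14 in monocyte-like cells. The alternatives chosen after seeing the data gave 12 without the Mmp19 cluster (cluster 14) and 29 without the Cxcl10 cluster (cluster 0). Leaving out each mouse gave 1 to 5 in all CD45+, 3 to 9 in ILC2-like, 0 to 7 in cDC1-like, 1 to 3 in cDC2-like, 0 to 2 in cycling, 0 to 1 in macrophage-like and 1 to 348 in monocyte-like cells. Without composition scaling the median of all genes in monocyte-like cells moved to -0.10 and the calls to 36 higher and 30 lower, from 35 and 14.

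Some log2 fold changes changed sign. H2-Oa in all CD45+ cells was 0.0255 in well 2. With marker gates Cd74 in T-like cells was 3.77 and H2-DMb1 in cDC1-like cells 0.0149. Ciita in cDC2-like cells was -0.00182 with class II genes kept, -0.22 with gates and -0.0131 without the top 5%. H2-DMa in cycling cells was 0.0525 with class II genes kept. H2-DMa in monocyte-like cells was 0.0108 without the filter, 0.0191 with 20 cells a mouse, 0.16 with class II genes kept, 0.30 with gates, 0.0827 without the top 5%, 0.0546 in well 1, 0.21 without cluster 14 and 0.0606 without cluster 0. The ILC2-like minus cDC2-like difference for H2-Ab1 was 0.0626 without composition scaling. Leaving out each mouse gave -0.00993 to 0.14 for H2-DMa and -0.0233 to 0.0572 for H2-Eb1 in cDC1-like cells, -0.12 to 0.25 for Ciita in cDC2-like, -0.16 to 0.0536 for H2-DMa in cycling and -0.17 to 0.21 for H2-DMa in monocyte-like cells. For differences of effects it gave -0.0893 to 0.69 (H2-Aa), -0.42 to 0.11 (H2-Ab1) and -5.58 to 1.59 (H2-DMa) in ILC2-like minus cDC2-like, -0.27 to 0.42 (H2-DMa) and -0.58 to 0.00675 (H2-DMb1) in macrophage-like minus monocyte-like, and -0.21 to 0.0734 (H2-DMa) and -1.37 to 1.32 (H2-Oa) in monocyte-like minus cDC2-like. The cause was not tested.

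As shares of UMIs, T-like cells gave 0.0233% in well 1 and 0.364% in well 2. B-like cells gave 1.73% with gates, 1.70% in well 1, 1.83% in well 2 and 1.74% to 1.87% leaving out each mouse. Langerhans-like cells gave 5.66% with class II genes kept, 5.57% with gates, 6.06% and 6.21% in wells 1 and 2 and 6.04% to 6.32% leaving out each mouse. Thinned shares of cells with a UMI were 1.68% (H2-Oa, ILC2-like), 0% (H2-Oa, neutrophil-like), and for Cd74 6.04% in ILC2-like, 12.4% in T-like and 24.9% in neutrophil-like cells, against 23.2%, 27.7% and 39.9% unthinned. Monocyte-like H2-Ab1 with genotypes centred gave r = -0.0424 with Irf1, and 0.869 with Irf1 without the 2 farthest mice. cDC2-like H2-Ab1 with genotypes centred gave -0.771 with Ciita (permutation, adjusted p = 0.0243) and 0.715 with Irf1 (permutation, adjusted p = 0.0478). Both p-values are approximate, since centred values were permuted over all mice and not within genotype.

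Rare classes limit the tests: B-like, Langerhans-like and migratory DC-like cells had too few mice, and single wells, gates and 20 cells a mouse were not run in classes they left with too few. Of the members' fold changes under the other settings, 422 kept direction and side of the threshold, 8 passed it and 15 changed sign. Leaving out each mouse gave 388, 2 and 15.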
